A study of Mus musculus with 16 samples.

Results

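Tendon cell genes were followed in mouse quadriceps, the muscle at the front of the thigh, after the anterior cruciate ligament (ACL) had been cut. The group holds 10 genes chosen by name: Scx, Tnmd, Mkx, Fmod, Thbs4, Comp, Chad, Kera, Cilp and Cilp2. All 10 were among the 17370 genes of the deposited table, and all 10 passed the filter on low counts that left 15411 genes for testing. The 16 libraries, from total RNA, fall into 4 groups of 4: injured quadriceps with inhibitor, healthy quadriceps with inhibitor, injured quadriceps with placebo and healthy quadriceps with placebo. The inhibitor acts on CSF1-R, a growth factor receptor on which many macrophages depend for survival, and was given at 40 mg/kg. Placebo was 0.5% sucrose, and both were taken in drinking water for 7 days after the transection. The labels give no strain, sex, age or genotype. Library names share 8 stems, each with an L and an R ending, which are read here as the left and right limbs of 8 animals, although the labels do not say so and the series' design text speaks of muscle before and after the transection. All injured libraries end in R and all healthy ones in L, so that side and injury cannot be told apart.

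Tendon joins muscle to bone, and its cells, the tenocytes, lay down parallel collagen fibrils. Scleraxis (Scx), a basic helix-loop-helix transcription factor, marks tendon progenitors, and Mohawk (Mkx), a homeobox factor, promotes tendon maturation. Tenomodulin (Tnmd) is a membrane glycoprotein of mature tenocytes. The other genes encode secreted matrix proteins, and several of these, above all Comp, Chad, Cilp and Cilp2, are also made by cartilage. Whole muscle was sequenced, so fewer cells of a type and less RNA per cell cannot be told apart.

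Scleraxis binds DNA at E-boxes, 6-base sites of the form CANNTG that read as the same form on both strands. Because the members varied together across libraries, as described further on, the 250 bases upstream of their RefSeq transcription starts (GRCm38.p6) were searched for this form. RefSeq windows were at hand for 7 of the 10 genes, without Scx, Mkx and Comp. An E-box was found in 5 of the 7 and in 66.2% of all 32851 promoter windows of the same length. Tnmd and Kera held none in this window. The RefSeq starts of 3 genes differ from the gene positions given below. By those positions the windows of Kera and Cilp2 lie inside the gene, and that of Tnmd runs into it. The windows of Cilp, with the most matches among the 7, of Thbs4 and Fmod, with 1 each, and of Tnmd are shown 5′ to 3′ on the gene's strand, with each E-box in capitals.
Cilp (chr9:65264930-65265179, + strand): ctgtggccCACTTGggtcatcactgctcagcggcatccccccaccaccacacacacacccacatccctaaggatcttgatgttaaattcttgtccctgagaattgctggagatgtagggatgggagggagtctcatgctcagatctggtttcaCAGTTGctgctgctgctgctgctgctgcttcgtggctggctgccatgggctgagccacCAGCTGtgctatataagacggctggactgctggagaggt
Thbs4 (chr13:92794819-92795068, - strand): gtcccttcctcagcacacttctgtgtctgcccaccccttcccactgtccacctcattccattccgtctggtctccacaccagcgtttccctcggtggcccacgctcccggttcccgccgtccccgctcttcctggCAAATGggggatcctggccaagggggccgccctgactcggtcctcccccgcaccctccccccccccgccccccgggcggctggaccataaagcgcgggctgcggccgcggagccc
Fmod (chr1:134037004-134037253, + strand): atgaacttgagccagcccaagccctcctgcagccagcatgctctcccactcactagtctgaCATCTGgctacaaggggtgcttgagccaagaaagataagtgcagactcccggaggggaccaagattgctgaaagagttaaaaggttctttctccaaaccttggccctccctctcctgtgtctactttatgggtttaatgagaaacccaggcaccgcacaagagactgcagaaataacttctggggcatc
Tnmd (chrX:133850758-133851007, + strand): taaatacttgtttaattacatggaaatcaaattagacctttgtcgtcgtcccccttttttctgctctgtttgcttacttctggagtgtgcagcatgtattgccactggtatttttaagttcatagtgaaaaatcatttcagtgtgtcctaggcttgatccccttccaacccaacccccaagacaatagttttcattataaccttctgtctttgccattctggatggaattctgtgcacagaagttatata
The first bases of the 3 E-boxes of Cilp lie 242, 97 and 39 bases before the start. At least 3 such sites were present in 12.2% of all windows. The Thbs4 site is CAAATG at 115 bases and the Fmod site CATCTG at 189 bases before the start. Cilp2 has CAGTTG at 156 bases and Chad CAACTG at 49 bases. The form CAGATG, read on both strands, was in 14.4% of all windows and in Fmod alone among the 7. TATAAA, the core of a TATA box, was found on either strand in 12.4% of all windows and in Chad alone among the 7. GCGTGGGCG, a site of the tendon-associated factor Egr1, was in 0.536% of all windows and in none of the 7. These matches describe letters only, and binding was not measured.

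On GRCm38, Scx (ENSMUSG00000034161) is a gene of chromosome 15 from 76457452 to 76459458, Tnmd (ENSMUSG00000031250) of chromosome X from 133850980 to 133865577, and Mkx (ENSMUSG00000061013) of chromosome 18 from 6934518 to 7004780. Fmod (ENSMUSG00000041559) lies on chromosome 1 from 134037254 to 134048277, and Kera (ENSMUSG00000019932) on chromosome 10 from 97606879 to 97613692. Thbs4 (ENSMUSG00000021702) lies on chromosome 13 from 92751590 to 92794818, and Chad (ENSMUSG00000039084) on chromosome 11 from 94565047 to 94569127. Cilp (ENSMUSG00000042254) lies on chromosome 9 from 65265180 to 65280605. Chromosome 8 holds both Comp (ENSMUSG00000031849), from 70373558 to 70382066, and Cilp2 (ENSMUSG00000044006), from 69880369 to 69887687. All are protein-coding. Scx lies inside Bop1 and Chad inside Acsf2, in each case on the opposite strand and with 0 shared exon bases, and whether the counting used strand is not given in the sources used here. Mkx shares 201 exon bases with AC148004.2, a gene of the same strand that is absent from the deposited table, and the effect on its counts was not tested. Bop1, a ribosome biogenesis gene, stayed between 18.8 and 25.7 CPM in the 16 libraries, and Acsf2, which encodes an acyl-CoA synthetase, between 0.953 and 3.81 CPM.

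Library totals were 20117023 to 27133286 counts. Levels are given as CPM, a gene's counts per 1000000 counts of its library, after scaling of library sizes by TMM. Members had 6 to 6458 counts in a library, with no library at 0. A count of 3, taken as the floor, stood for 0.109 to 0.159 CPM and covers counting error only. As a check of the tissue, Acta1, the actin of skeletal muscle fibres, was at 23800 to 37200 CPM. Before any comparison, 4 libraries have to be named. Prg4, which encodes lubricin of the joint surface, was at 220 CPM in injured placebo 2, 286 in injured placebo 3, 169 in healthy inhibitor 1 and 251 in healthy placebo 4, while the other 12 libraries had 3.97 to 19.5 CPM. These 4 were known from earlier results of the same data, and each comparison is given with and without them.

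Per kilobase of exon, the scale on which genes can be compared, Fmod and Thbs4 stood highest. Fmod, which encodes fibromodulin, a leucine-rich proteoglycan that binds collagen fibrils, averaged 32.2 ± 10.6 CPM per kb (SD over 16 libraries), and Thbs4, a pentameric thrombospondin of tendon and muscle matrix, 26.2 ± 16.5 CPM per kb. Fmod was above Thbs4 in 14 of 16 libraries. Cilp followed at 11.6 ± 8.17 CPM per kb, below Thbs4 in all 16 libraries. Chad (7.88 ± 3.66 CPM per kb), Kera (6.0 ± 2.71), Tnmd (5.80 ± 3.60) and Comp (4.16 ± 3.90) came next. Their order was not firm: Kera was above Tnmd in 10 of 16 libraries and Comp above Scx in 8 of 16. Scx averaged 3.32 ± 1.80 CPM per kb, Cilp2 2.08 ± 0.99 and Mkx 0.294 ± 0.176, the last below Cilp2 in every library. The regulators of the group were thus at the low end of this scale and 2 matrix genes at its top. For Scx the scale is less sure. Its annotated exons merge into 1 stretch of 2007 bases that covers the whole gene, so any intron counts as exon and lowers its value. The effect on its place in the order was not tested.

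All 10 genes varied widely from library to library. The highest library exceeded the lowest by 4.76 times for Fmod and by 22.0 times for Comp, with 14.4 times for Tnmd and 13.8 times for Cilp2. The lowest library of these 4 genes was healthy placebo 1, and without it the ratios were 2.84 for Fmod, 11.7 for Comp, 7.65 for Tnmd and 4.4 for Cilp2. The SD of log2 CPM over the 16 libraries had a median of 0.87 over the 10 genes, beside 0.29 over all 15411 tested genes. Fmod, the steadiest, had an SD of 0.57, which was larger than that of 75.7% of tested genes, and Comp one of 1.13, larger than that of 95.3%.

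**Figure D1:**
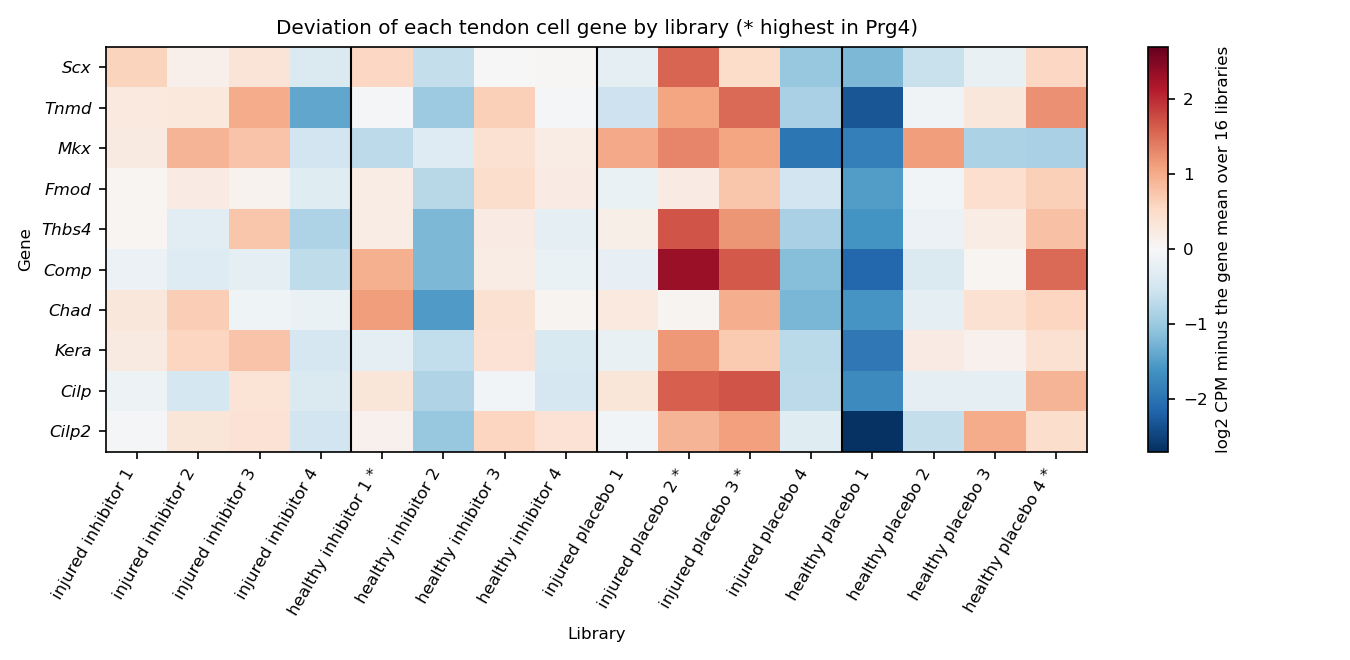
Deviation of log2 CPM of each of the 10 genes (rows) from its own mean over 16 libraries, by library (columns), with the groups separated by black lines and an asterisk on the 4 libraries highest in Prg4. Healthy placebo 1 is blue for all 10 genes (mean deviation -1.85), while injured placebo 2 (1.20) and injured placebo 3 (1.12) are red.

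The 10 genes were often high or low in the same libraries. Injured placebo 2 was the highest library for 5 genes (Scx, Mkx, Thbs4, Comp and Kera), injured placebo 3 for 4 (Tnmd, Fmod, Cilp and Cilp2) and healthy inhibitor 1 for Chad. At the other end, healthy placebo 1 was lowest for 9 genes, all but Mkx, whose lowest library was injured placebo 4. The mean deviation of the 10 genes from their own log2 means ran from -1.85 in healthy placebo 1 to 1.20 in injured placebo 2. Injured placebo 3 had all 10 genes above their median over libraries, and 4 libraries (injured inhibitor 4, healthy inhibitor 2, injured placebo 4 and healthy placebo 1) had none above it. High and low libraries were thus found within the same group, most plainly within both placebo groups.

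**Figure D2:**
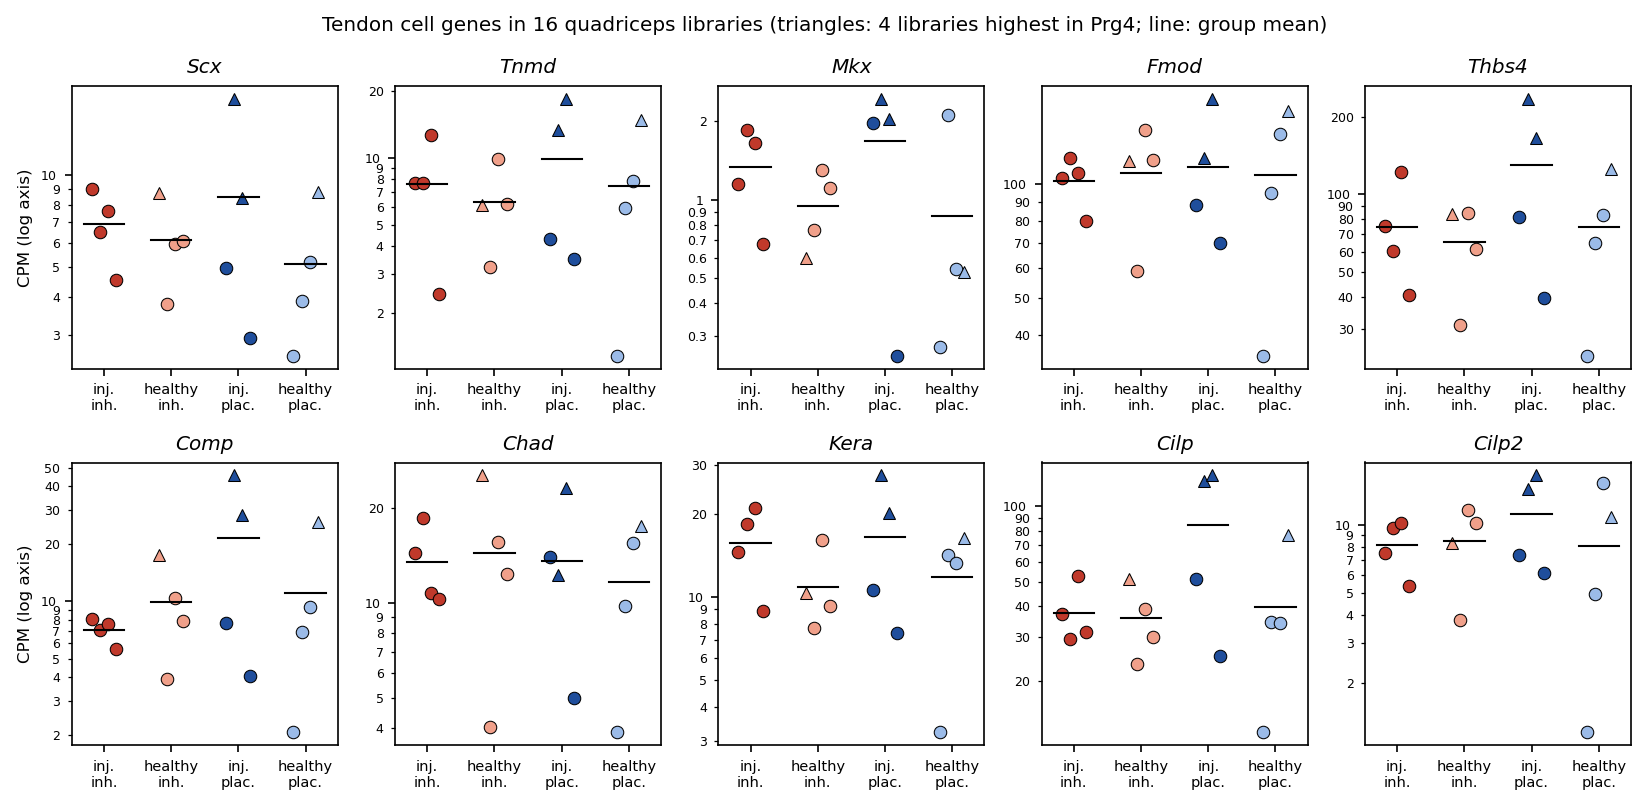
CPM (log axis) of each gene in each library, by group, with the group mean as a line and the 4 libraries highest in Prg4 as triangles. The groups overlap for every gene, and the 4 triangles are the 4 highest points only for Comp.

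Prg4 and slow-fibre genes were set beside the tendon genes, library by library. The 3 libraries highest in Prg4 were also the 3 highest in the mean of the tendon genes, with mean deviations of 1.12 (injured placebo 3), 1.20 (injured placebo 2) and 0.63 (healthy placebo 4). The fourth, healthy inhibitor 1, had a mean deviation of 0.24 and came sixth. Similarly, the 3 libraries lowest in Prg4 were the 3 lowest for the tendon genes: healthy inhibitor 2 (5.50 CPM of Prg4, mean deviation -0.92), injured placebo 4 (6.55 CPM, -0.94) and healthy placebo 1 (3.97 CPM, -1.85). At this low end slow-fibre genes were low as well. Myh7, the myosin heavy chain of slow muscle fibres, was at 50.9 CPM in injured inhibitor 4, 5.50 in healthy inhibitor 2, 18.0 in injured placebo 4 and 26.8 CPM in healthy placebo 1, the 4 libraries with no tendon gene above its median, and at 123 to 1550 CPM in the other 12. At the high end the order differed: injured placebo 2 and healthy placebo 4, ranked 1 and 3 for the tendon genes, were ranked 9 and 10 of 16 for the summed slow-fibre level.

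**Figure D3:**
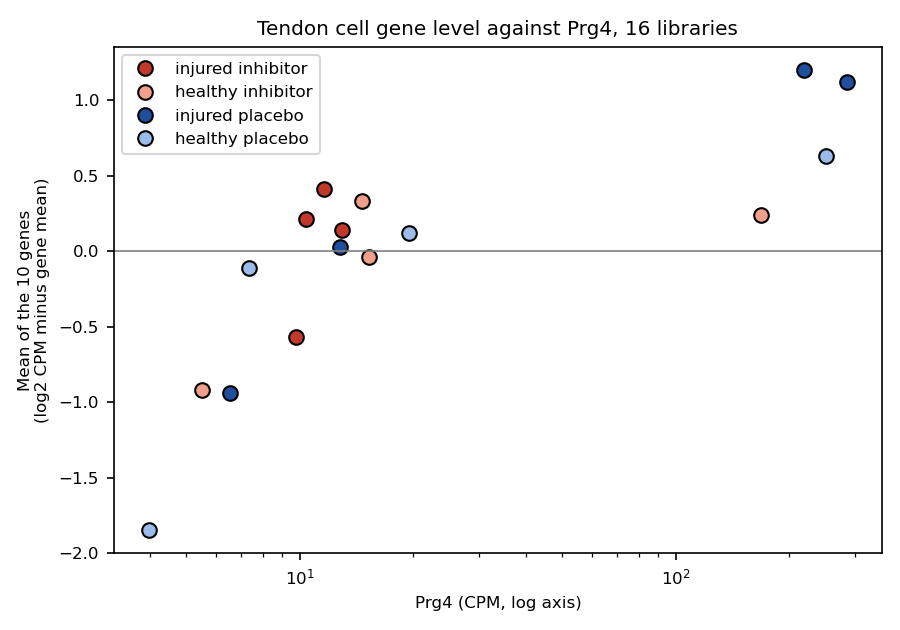
Mean deviation of the 10 tendon genes (log2 CPM minus the gene's mean, vertical axis) against Prg4 CPM (horizontal log axis), 1 point for each of the 16 libraries, coloured by group. The points at 220, 251 and 286 CPM of Prg4 are the 3 highest on the vertical axis, and the 3 points below 7 CPM the 3 lowest.

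Comp followed the 4 Prg4-rich libraries most closely. Cartilage oligomeric matrix protein, which it encodes, is a pentameric thrombospondin found in tendon as well as cartilage. Its levels were 45.5 CPM in injured placebo 2, 28.3 in injured placebo 3, 17.4 in healthy inhibitor 1 and 26.0 in healthy placebo 4, and all 4 exceeded the other 12 libraries, which spanned 2.06 to 10.4 CPM. The ratio of Comp to Fmod, in which gene length is a constant factor, was 0.151 to 0.390 in these 4 and 0.0577 to 0.0870 in the other 12. That ratio was chosen after its values were seen. For Cilp over Fmod it was 0.445 to 1.08 in the 4 and 0.253 to 0.579 in the 12, and for Tnmd over Fmod 0.0534 to 0.115 in the 4 and 0.0303 to 0.119 in the 12, so both ranges overlap.

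Not every gene sorted this way. Mkx was at 2.44 and 2.04 CPM in injured placebo 2 and 3 but at 0.595 in healthy inhibitor 1 and 0.529 in healthy placebo 4, within the 0.252 to 2.12 CPM of the other 12. Chad, which encodes the cell-binding leucine-rich protein chondroadherin, was highest in healthy inhibitor 1 (25.3 CPM) and was at only 12.2 CPM in injured placebo 2. Even among the 12 libraries low in Prg4, the highest exceeded the lowest by 3.5 times for Scx, 9.90 times for Tnmd and 12.8 times for Cilp2. Healthy placebo 1 set the low end, and without it these ratios were 3.06, 5.26 and 4.07.

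Markers of other cell types were read in the same libraries. Of 14 markers of joint lining and cartilage 12 were in the table. Their summed level was 244 to 393 CPM in the 4 Prg4-rich libraries and 67.1 to 109 CPM in the other 12. Prg4, by which the 4 were named, is part of this sum, so the separation follows at least in part from that choice. By group the sum was 75.0 to 99.6 CPM in injured inhibitor and 82.6 to 244 CPM in healthy inhibitor libraries. It was 67.1 to 393 CPM in injured placebo and 75.9 to 345 CPM in healthy placebo libraries. Acan, the main proteoglycan of cartilage, was at 16.1, 1.04, 0.320 and 12.2 CPM in injured placebo 2, injured placebo 3, healthy inhibitor 1 and healthy placebo 4, and at no more than 0.265 CPM elsewhere. Prg4, Col2a1, Col10a1 and Has1 were likewise higher in each of the 4 than in any of the 12. The other joint markers of the table, Col9a1, Col11a2, Matn3, Cytl1, Hapln1, Sox9 and Clu, overlapped. Of 6 bone markers, the matrix gene Ibsp was at 1.27 to 4.06 CPM in the 4 libraries and at 0 in the other 12. Bglap and Bglap2 were also higher in each of the 4 than in any of the 12. Sp7 was as well, but at 0.0802 CPM in injured placebo 3 and up to 0.0478 CPM in the 12, both under the floor. Dmp1 and Col1a1 overlapped. The sum of the bone markers overlapped too, at 118 to 2100 CPM in the 4 and 17.4 to 208 CPM in the 12. All 10 fibro-adipogenic progenitor markers, genes of the resident mesenchymal cells of muscle, summed to 406 to 556 CPM in the 4 libraries and 165 to 374 CPM in the other 12. Ly6a, Cd34, Dpp4, Dpt, Clec3b and Mfap5 were higher in each of the 4 than in any of the 12, but Pdgfra, Pi16, Col15a1 and Smoc2 overlapped. All 8 macrophage markers summed to 68.1 to 364 CPM in the 4 and 14.2 to 71.4 CPM in the 12. By group the macrophage sum was 25.7 to 48.4 CPM in injured inhibitor, 19.2 to 68.1 in healthy inhibitor, 47.6 to 364 in injured placebo and 14.2 to 184 CPM in healthy placebo libraries. All 6 slow-fibre markers summed to 167 to 3150 CPM in injured inhibitor, 63.8 to 2620 in healthy inhibitor, 86.7 to 3170 in injured placebo and 112 to 1610 CPM in healthy placebo libraries. Sums of the remaining lists overlapped between the 4 and the 12. Endothelial markers gave 182 to 249 CPM in the 4 and 225 to 311 CPM in the 12. Pericyte and smooth muscle markers gave 246 to 336 and 273 to 395 CPM. Schwann cell and perineurium markers gave 55.9 to 66.2 and 50.8 to 132 CPM. Skeletal muscle fibre markers gave 124000 to 160000 and 113000 to 207000 CPM, and slow-fibre markers 544 to 3170 and 63.8 to 3150 CPM. The part of these cell types in the tendon gene levels was not tested.

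The comparison of injured with healthy quadriceps under placebo asks what ACL transection did without the inhibitor. All 10 tendon genes had positive log2 differences, with a median of 0.61, but none passed the test and no group was separated from the other. Among all tested genes 51.1% were positive, with a median of 0.01. EdgeR's quasi-likelihood test called 0 of the 10 genes after Benjamini-Hochberg adjustment, as of all genes (0%), and 0 of the 10 had an unadjusted p under 0.05, which 7.24% of all genes had. The groups did not overlap for 0.87% of all genes with the injured higher and for 0.681% with them lower, and for 0 members.

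Among the regulators, Scx was at 4.96, 17.7, 8.38 and 2.94 CPM in injured placebo 1 to 4, and at 2.57, 3.89, 5.20 and 8.77 CPM in healthy placebo 1 to 4. Injured placebo 2 alone exceeded the healthy range. The log2 difference was 0.74 ± 0.48 (SE), with a 95% interval of -0.29 to 1.77 (edgeR adjusted p = 0.667). Mkx was at 1.97, 2.44, 2.04 and 0.252 CPM in injured and at 0.272, 2.12, 0.541 and 0.529 CPM in healthy quadriceps. In each group of Mkx values 1 library sat apart from the rest, low in the injured and high in the healthy group, and the difference was 0.96 ± 0.63 (adjusted p = 0.667). For Tnmd, the membrane marker of tenocytes, injured quadriceps gave 4.29, 13.4, 18.5 and 3.48 CPM and healthy quadriceps 1.28, 5.92, 7.86 and 14.9 CPM. A difference of 0.41 ± 0.69 was well within that spread (adjusted p = 0.865).

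The thrombospondins had positive differences within the spread of their libraries. Thbs4 was at 81.9, 235, 166 and 39.5 CPM in injured and at 23.7, 65.0, 83.3 and 126 CPM in healthy quadriceps, a log2 difference of 0.81 ± 0.58 (adjusted p = 0.688). Comp was at 7.69, 45.5, 28.3 and 4.03 CPM in injured and at 2.06, 6.91, 9.32 and 26.0 CPM in healthy quadriceps, with 0.95 ± 0.77 (adjusted p = 0.717). Both genes were highest in injured placebo 2 and 3, while injured placebo 4 lay below 3 of the 4 healthy libraries.

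Cilp, which encodes cartilage intermediate layer protein, a matrix protein that can bind TGF-beta, had the largest log2 difference of the 10, 1.09 ± 0.55, with an interval of -0.10 to 2.28 (adjusted p = 0.641). It was at 51.2, 126, 133 and 25.1 CPM in injured and at 12.5, 34.6, 34.3 and 76.9 CPM in healthy quadriceps. Its relative Cilp2 was at 7.37, 14.5, 16.6 and 6.13 CPM in injured and at 1.21, 4.97, 15.4 and 10.8 CPM in healthy quadriceps, with 0.47 ± 0.58. Of the leucine-rich proteins, Fmod averaged 111 ± 42.7 CPM in injured and 106 ± 53.3 CPM in healthy quadriceps (SD, n = 4 each), a difference of 0.07 with an interval of -0.78 to 0.92. Chad averaged 13.5 ± 7.39 CPM in injured and 11.7 ± 6.12 CPM in healthy quadriceps (difference 0.22 ± 0.55). Kera, which encodes keratocan, a proteoglycan best known from the cornea, was at 10.6, 27.6, 20.1 and 7.39 CPM in injured and at 3.23, 14.2, 13.3 and 16.4 CPM in healthy quadriceps (difference 0.48 ± 0.48).

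Read within animals, placebo gave a split that held for the whole group of genes. These genes varied together across libraries, so the 10 differences of an animal are not separate observations. Shares over all genes were not counted by animal. All 10 genes were higher in the injured limb of placebo animals 1, 2 and 3, with median log2 differences of 1.82, 1.36 and 0.84. All 10 were lower in the injured limb of placebo animal 4, with a median of -1.60. Comp in that animal was at 4.03 CPM in the injured and 26.0 CPM in the healthy limb, and Prg4 at 6.55 CPM in the injured and 251 CPM in the healthy limb. In placebo animals 2 and 3, Prg4 was at 220 and 286 CPM in the injured limb and at 7.32 and 19.5 CPM in the healthy limb. Only placebo animal 1 had both limbs low in Prg4 (12.8 CPM injured, 3.97 CPM healthy). There Scx was at 4.96 CPM in the injured and 2.57 CPM in the healthy limb, and Tnmd at 4.29 CPM in the injured and 1.28 CPM in the healthy limb. That healthy limb is healthy placebo 1, the lowest library for 9 of the 10 genes. Its Myh7 was at 26.8 CPM, against 426 CPM in the injured limb, and the part of this in the pair's differences was not tested.

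**Figure D4:**
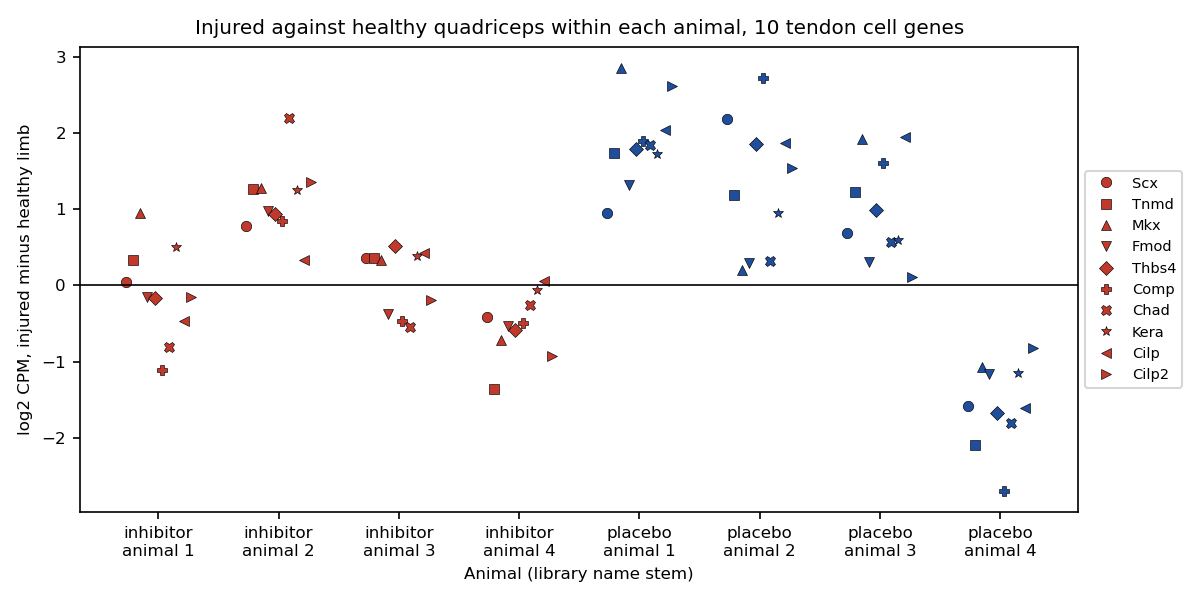
log2 CPM of the injured minus the healthy limb (vertical axis) for each of the 10 genes, by animal (horizontal axis), inhibitor animals in red and placebo animals in blue. All 10 points lie above 0 in placebo animals 1 to 3 and in inhibitor animal 2, and all 10 lie below 0 in placebo animal 4.

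Without the 4 Prg4-rich libraries, which left injured placebo 1 and 4 against healthy placebo 1 to 3, the median difference of the 10 genes under placebo was -0.06, with 4 positive and 6 negative. Cilp was at 0.48 ± 0.47, Scx at 0.02 ± 0.35, Comp at -0.06 ± 0.55 and Tnmd at -0.37 ± 0.80. The direction of 6 of the 10 differences thus turned: Tnmd, Fmod, Comp, Chad, Kera and Cilp2. The 6 slow-fibre markers had a median of 1.24 with all libraries, 6 positive, and of -0.52 without the 4, and their part in the result was not tested. Single libraries moved the values too. Without injured placebo 2, Scx was at 0.09, Thbs4 at 0.36, Comp at 0.27 and Kera at 0.11, and without healthy placebo 4, Scx was at 1.11, Comp at 1.79 and Cilp at 1.61. Mkx was at 1.89 without healthy placebo 2, and Cilp2 ranged from 0.10 without healthy placebo 1 to 0.98 without healthy placebo 3.

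Under the inhibitor, the genes had no common direction between injured and healthy quadriceps, and intervals were wide (-2.17 to 1.20 for Comp). The 10 log2 differences were 6 positive and 4 negative with a median of 0.12, beside 51.0% positive and a median of 0.00 over all tested genes. EdgeR called 0 of the 10 and 0% of all genes, and 0 of the 10 had an unadjusted p under 0.05, against 1.31% of all genes. The groups did not overlap for 1.13% of all genes with the injured higher and 1.12% with them lower, and for 0 members. Kera had the largest positive difference, 0.53 ± 0.48 (adjusted p = 1.00), at 14.5, 18.4, 21.0 and 8.91 CPM in injured inhibitor 1 to 4 and 10.3, 7.72, 16.1 and 9.26 CPM in healthy inhibitor 1 to 4. Mkx came next with 0.49 ± 0.63, at 1.15, 1.85, 1.65 and 0.679 CPM in injured and 0.595, 0.764, 1.30 and 1.11 CPM in healthy quadriceps. Comp had the largest negative difference, -0.49 ± 0.78, at 8.03, 7.04, 7.56 and 5.60 CPM in injured and 17.4, 3.90, 10.4 and 7.89 CPM in healthy quadriceps. The 4 injured values of Comp were close to each other, and the healthy ones enclosed them on both sides.

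Scx (0.17 ± 0.48), Tnmd (0.27 ± 0.70), Thbs4 (0.19 ± 0.58), Cilp (0.07 ± 0.55), Fmod (-0.07 ± 0.39), Chad (-0.09 ± 0.55) and Cilp2 (-0.05 ± 0.58) had smaller differences, and their intervals reached from -1.30 for Cilp2 to 1.76 for Tnmd. Scx was at 8.99, 6.51, 7.60 and 4.54 CPM in injured and at 8.74, 3.78, 5.94 and 6.09 CPM in healthy inhibitor libraries. Tnmd was at 7.69, 7.73, 12.7 and 2.42 CPM in injured and at 6.13, 3.21, 9.88 and 6.19 CPM in healthy inhibitor libraries, and both genes overlapped between the groups. The animals differed here too. Inhibitor animal 2 had all 10 genes higher in the injured limb (median log2 difference 1.12), inhibitor animal 4 had 9 of 10 lower (-0.51), and animals 1 and 3 were mixed, with 4 and 6 genes higher. Without the 4 Prg4-rich libraries the median was 0.31 with 7 positive, and Chad turned to 0.34 ± 0.58. Of these 4, only healthy inhibitor 1 belongs to the comparison. The slow-fibre markers had a median of 0.69 with all libraries and 1.48 without the 4, and their part was not tested.

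The comparison of inhibitor with placebo in injured quadriceps asks whether blocking CSF1-R changed the injured muscle. All 10 tendon genes had negative log2 differences, with a median of -0.36, where 53.1% of all tested genes were negative and their median was -0.02. EdgeR called 0 of the 10 and 0% of all genes, and 0 of the 10 had an unadjusted p under 0.05, which 14.9% of all genes had. No member separated the groups, which 2.77% of all genes did with the inhibitor higher and 2.87% with it lower. This comparison shares the injured placebo libraries with the injury comparison above.

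Comp and Cilp had the largest differences. Comp averaged 7.06 ± 1.05 CPM with inhibitor and 21.4 ± 19.3 CPM with placebo (SD, n = 4 each), a log2 difference of -1.60 ± 0.78 with an interval of -3.29 to 0.09 (adjusted p = 0.358). Its 4 inhibitor values, 5.60 to 8.03 CPM, lay above injured placebo 4 (4.03 CPM), on both sides of injured placebo 1 (7.69 CPM) and below injured placebo 2 and 3. Cilp was at 37.1, 29.5, 52.5 and 31.3 CPM with inhibitor, against 51.2, 126, 133 and 25.1 CPM with placebo. Its difference was -1.16 ± 0.55, with an interval of -2.35 to 0.04 (adjusted p = 0.349). Thbs4 was at 75.3, 60.2, 122 and 40.8 CPM with inhibitor and 81.9, 235, 166 and 39.5 CPM with placebo (-0.81 ± 0.58, adjusted p = 0.539). In all 3 genes the placebo values above the inhibitor range came from injured placebo 2 and 3.

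The tendon regulators and Tnmd differed less. Scx had a difference of -0.30 ± 0.48, Mkx -0.33 ± 0.62, Tnmd -0.38 ± 0.69 and Cilp2 -0.45 ± 0.58. Kera (-0.07 ± 0.48), Fmod (-0.12 ± 0.39) and Chad (-0.01 ± 0.55) were near 0. Fmod had an interval of -0.97 to 0.73 here, the narrowest of the 10. The spread of Comp and Scx was much wider with placebo (SD 19.3 and 6.52 CPM) than with inhibitor (1.05 and 1.88 CPM), a comparison of spreads that was not tested.

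Without the 4 Prg4-rich libraries, injured inhibitor 1 to 4 stood against injured placebo 1 and 4 alone. The median difference was then 0.34, with 9 of 10 positive and 1 negative. Injured placebo 2 and 3, left out here, ranked 1 and 2 of 16 for the tendon genes, and injured placebo 1 and 4 ranked 10 and 15. Scx was at 0.81 ± 0.34 (adjusted p = 0.778), Kera at 0.81 ± 0.58, Tnmd at 0.98 ± 0.77 and Comp at 0.27 ± 0.53, all with the opposite sign to the value from 16 libraries, and Cilp was at -0.02 ± 0.45. The slow-fibre markers had a median of 0.33 with all libraries and 2.12 without the 4, 6 of 6 positive in both, and their part in the result was not tested. Without injured placebo 2 alone, Comp was at -0.91, Thbs4 at -0.35 and Mkx at -0.09, and without injured placebo 4 Comp was at -1.94.

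**Figure D5:**
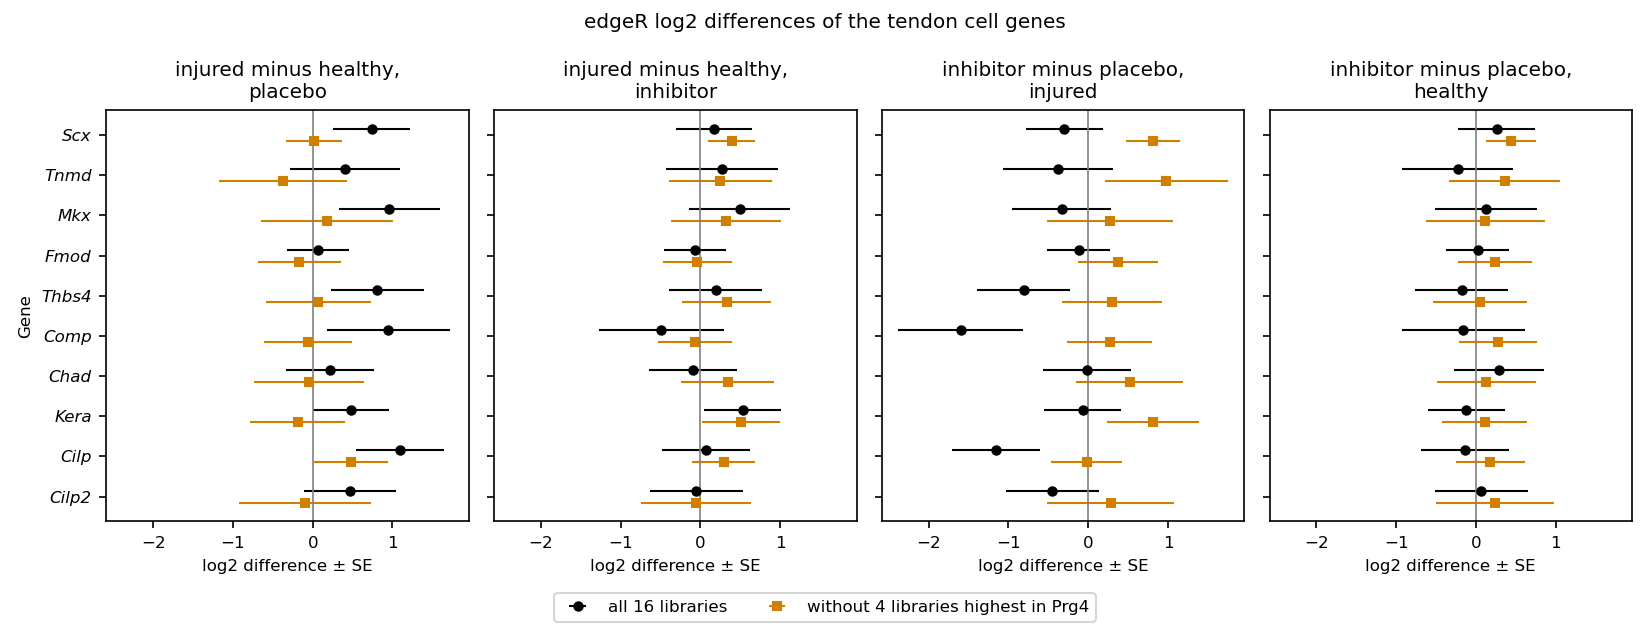
log2 differences with their SE (horizontal axis) for the 10 genes (vertical axis) in 4 comparisons, from all 16 libraries (black circles) and without the 4 libraries highest in Prg4 (orange squares). For inhibitor minus placebo in injured quadriceps, Comp is at -1.60 with all libraries and at 0.27 without the 4, and Scx at -0.30 and 0.81.

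In healthy quadriceps, inhibitor and placebo gave 5 positive and 5 negative differences with a median of -0.05, where 54.0% of all tested genes were negative with a median of -0.02. EdgeR called 0 of the 10 and 0% of all genes, and 0 of the 10 had an unadjusted p under 0.05, against 3.34% of all genes. The groups did not overlap for 0.96% of all genes with the inhibitor higher and 1.59% with it lower, and for 0 members. The differences ran from -0.23 ± 0.70 for Tnmd to 0.29 ± 0.56 for Chad. Tnmd averaged 6.35 ± 2.73 CPM with inhibitor and 7.48 ± 5.64 CPM with placebo, and Chad 14.3 ± 8.79 CPM with inhibitor and 11.7 ± 6.12 CPM with placebo (SD, n = 4 each). Fmod was at 115, 59.1, 139 and 116 CPM with inhibitor and at 35.3, 95.0, 136 and 156 CPM with placebo, a difference of 0.02 ± 0.39. Thbs4 was at 84.2, 31.3, 85.0 and 61.6 CPM with inhibitor and 23.7, 65.0, 83.3 and 126 CPM with placebo. Each group again held its own low library, healthy inhibitor 2 and healthy placebo 1. When the 4 Prg4-rich libraries were left out, all 10 differences were positive, with a median of 0.21, and Scx was at 0.44 ± 0.31 (adjusted p = 1.00). The slow-fibre markers had a median of 0.96 with all libraries and 0.08 without the 4, and their part was not tested.

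The difference of the injury effects, inhibitor minus placebo, was tested in the same fit. It was negative for 9 of 10 genes, with a median of -0.49 beside 0.00 for all tested genes, of which 50.5% were negative. Comp had -1.44 ± 1.09 and Cilp -1.02 ± 0.78, both with adjusted p = 0.998, and Kera alone was positive (0.05 ± 0.68). EdgeR called 0 of the 10 and 0% of all genes, and 0 of the 10 had an unadjusted p under 0.05, against 2.74% of all genes. Without the 4 Prg4-rich libraries the median was 0.20, with 8 genes positive, and Comp was at -0.01 ± 0.72. The slow-fibre markers had a median of -0.59 with all libraries and 2.0 without the 4, and their part was not tested.

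Other genes of tendon biology were read from lists, by counts. No gene of these lists passed edgeR's adjusted test in any of the 5 comparisons. Of 11 collagens of tendon, 9 were positive for injury under placebo (median log2 difference 0.30) and 10 for injury under inhibitor (0.21). All 11 were negative for the inhibitor in injured (median -1.60) and in healthy quadriceps (-1.74). Col1a1, the main fibril collagen, averaged 119 ± 59.4 CPM in injured inhibitor, 92.5 ± 27.7 in healthy inhibitor, 559 ± 669 in injured placebo and 569 ± 1020 CPM in healthy placebo libraries, so both placebo groups had an SD above their mean. Without the 4 Prg4-rich libraries the inhibitor medians of the collagens were 0.62 in injured quadriceps, all 11 positive, and 0.49 in healthy quadriceps, 9 positive.

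The other small leucine-rich proteoglycans, relatives of Fmod and Kera, were tested for 10 of 12 genes. All 10 were positive for injury under placebo (median 0.48) and all 10 negative for the inhibitor in injured quadriceps (-0.53). Decorin (Dcn), which regulates fibril assembly, averaged 337 ± 54.0 CPM in injured and 239 ± 110 CPM in healthy placebo quadriceps, a log2 difference of 0.50 ± 0.25 (adjusted p = 0.641). With the 4 Prg4-rich libraries left out, the median of this list was 0.50 for injury under placebo, with 9 of 9 tested genes positive, and -0.05 for the inhibitor in injured quadriceps. The same medians of the 10 tendon cell genes were -0.06 and 0.34, and the difference between the lists was not tested. Of the 17 further tendon glycoproteins, all tested, 16 were positive for injury under placebo (median 0.44) and 16 negative for the inhibitor in injured quadriceps (-0.72). These medians were 0.29 and 0.30 without the 4 libraries. Fbln1, which encodes the matrix protein fibulin-1, was at 12.0 ± 4.01 CPM in injured and 7.20 ± 2.57 CPM in healthy placebo quadriceps (0.73 ± 0.26, adjusted p = 0.641).

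The regulators of tendon, 13 of 16 tested, were centred near 0, with 8 positive for injury under placebo (median 0.09) and 4 for the inhibitor in injured quadriceps (-0.08). Egr2, a zinc finger factor that promotes tendon collagen expression, averaged 0.545 ± 0.113 CPM with inhibitor and 1.30 ± 0.908 CPM with placebo in injured quadriceps (-1.26 ± 0.50, adjusted p = 0.268). The myotendinous junction, where fibres anchor to tendon, was represented by 12 tested genes, split 6 to 6 for injury under placebo with a median of 0.01. Its member Ankrd1, a stretch-responsive gene of muscle fibres, was at 29.3 ± 17.9 CPM in injured and 9.95 ± 3.5 CPM in healthy placebo quadriceps (1.56 ± 0.53, adjusted p = 0.641). Col22a1, a collagen of that junction, averaged 27.9 ± 4.10 CPM with inhibitor and 22.4 ± 3.29 CPM with placebo in injured quadriceps (0.32 ± 0.15, adjusted p = 0.338).

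Genes with the most similar course over the 16 libraries were found from the mean of the standardised log2 CPM of the 10 tendon genes. Likeness was the root mean square difference between standardised profiles, which is 0 for identical profiles and had a median of 1.38 over all tested genes. Itgbl1, an integrin beta-like matrix gene, was nearest at 0.33 and ranged from 2.92 to 21.6 CPM. Next came Ccl21a, Col8a2 and Dpysl3 at 0.41, Lgals9 at 0.42, Apba1, Ndrg4 and Cpxm2 at 0.44, and Emp1 and Mgp at 0.45. Ccl21a, a chemokine gene, has near-identical copies in the mouse genome, so its reads may be divided among them. The members are part of that mean, which draws them toward it. Set against the mean of the other 9 members, each lay at 0.31 (Thbs4) to 0.86 (Mkx), a measure that differs from the one used for the outside genes.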

How the data were processed

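Total RNA of 16 mouse quadriceps was sequenced. The authors deposited 1 table of expected counts per Ensembl gene, not normalized, in which 24.2% of values lay more than 0.01 from a whole number. STAR, Partek and DESeq2 with GRCm38/mm10 are named, per the submitters' processing notes, with no role or version. Annotation release and strand setting are not given in the sources used here. The smallest maximum of a gene in the deposited table was 10 counts. Counts were rounded. Symbols, positions and exon lengths came from GENCODE M21 (GRCm38) by Ensembl ID, which named 17338 of 17370 genes. Sequences came from RefSeq (GRCm38.p6).

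EdgeR 4.0.16 in R 4.3.3 removed 1959 genes (filterByExpr, minimum count 10), used TMM library scaling and modelled the 16 libraries by their 4 groups with its robust quasi-likelihood method. Tests were two-sided, and p-values were adjusted by Benjamini-Hochberg over all 15411 genes, with a threshold of 0.05. SEs follow from the F statistic and intervals from its degrees of freedom (12 residual before moderation). P-values measure the spread between samples as labelled. The fit was tested on simulated data. Alternatives were DESeq2 1.42.0, its size factors in edgeR, no filter, only the 8 libraries compared, a block, each library left out, and the 4 Prg4-rich libraries left out. Figures used matplotlib 3.10.9 in Python 3.11.15.

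Groups came from the labels, and the header rows of the table matched them for all 16 libraries. Library names were read as pairing an injured and a healthy limb of 1 animal. The correlation over genes of paired deviations from group means was 0.23, -0.04, -0.01 and -0.10 in inhibitor animals 1 to 4 and 0.47, -0.18, -0.11 and -0.53 in placebo animals 1 to 4. Members, lists, comparisons and alternatives were chosen with earlier results of these data known. The fold ranges without healthy placebo 1, the gap on log2 CPM and the likeness to the other 9 members were added after seeing the data. By the rule for named genes, all 10 members are given in each comparison, with examples from the 3 smallest p of each list and the 10 genes nearest in pattern.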

Additional observations from a re-analysis of the deposited data

Results flagged for a closer look

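Mkx in healthy placebo 2 stood apart from its group: it was at 2.12 CPM, against 0.272, 0.541 and 0.529 CPM in healthy placebo 1, 3 and 4, a gap of 0.855 of the group's range, larger than Dixon's critical value allows. On log2 CPM the gap was 0.666 of the range, below that value, and 2 other values passed it instead: Mkx in injured placebo 4 (0.252 CPM) and Kera in healthy placebo 1 (3.23 CPM). On CPM it was the 1 case among 40 groups of 4 values (10 genes in 4 groups), and chance gives about 1 in 20. Without this library the log2 difference of Mkx for injury with placebo was 1.89, against 0.96 with it.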

How the results depend on the processing

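Of 1090 values of the 10 genes under the alternatives, none passed the adjusted threshold, 981 kept their sign and 109 changed it, 74 of them when 1 library was left out. Signs that turned without the 4 Prg4-rich libraries were, for injury with placebo, Tnmd at -0.37, Fmod at -0.17, Comp at -0.06, Chad at -0.05, Kera at -0.19 and Cilp2 at -0.10, and for injury with inhibitor Chad at 0.34. For the inhibitor in injured quadriceps they were Scx at 0.81, Tnmd at 0.98, Mkx at 0.27, Fmod at 0.37, Thbs4 at 0.30, Comp at 0.27, Chad at 0.52, Kera at 0.81 and Cilp2 at 0.28, and in healthy quadriceps Tnmd at 0.36, Thbs4 at 0.05, Comp at 0.28, Kera at 0.11 and Cilp at 0.18. For the difference of the injury effects they were Scx at 0.37, Tnmd at 0.62, Mkx at 0.15, Fmod at 0.13, Thbs4 at 0.25, Chad at 0.39 and Cilp2 at 0.04. The cause was not tested. Chad for the inhibitor in injured quadriceps was also at 0.01 with no filter and 0.00 with DESeq2.

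With the animal as a replicate block, 0 genes were called for injury with placebo, injury with inhibitor and the difference, and the signs of Chad (0.07) and Cilp2 (0.01) under inhibitor and of Kera in the difference (-0.02) turned. With the replicate number as a block, which pairs different animals, 1 gene was called for the inhibitor in injured and 0 in healthy quadriceps, and Chad (0.10) and Kera (0.01) turned in injured quadriceps. Deviations of same-numbered injured libraries had correlations of 0.05, -0.05, 0.27 and 0.23, and of healthy ones -0.24, -0.07, -0.15 and -0.19.

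Over all genes, where edgeR called 0 in each comparison, DESeq2 called 2 for injury with placebo, 1 for injury with inhibitor, 256 and 11 for the inhibitor in injured and healthy quadriceps and 0 for the difference, with no member among them. Leaving out 1 library at a time gave 0 to 3 calls for injury with placebo (3 without injured placebo 4), 0 to 39 for the inhibitor in injured quadriceps (39 without injured placebo 4, 1 without healthy placebo 1) and 0 to 1 in healthy quadriceps (without injured placebo 1 or healthy placebo 1).

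The report names single libraries that moved other values. Where leaving out 1 library turned a sign, the log2 differences ranged as follows. For injury with placebo they were -0.08 to 0.97 for Tnmd, -0.22 to 0.31 for Fmod and -0.17 to 0.49 for Chad. For injury with inhibitor they were -0.00 to 0.39 for Scx, -0.10 to 0.57 for Tnmd, -0.27 to 0.08 for Fmod, -0.16 to 0.39 for Thbs4, -0.40 to 0.34 for Chad, -0.14 to 0.29 for Cilp and -0.30 to 0.15 for Cilp2. In injured quadriceps the inhibitor gave -0.58 to 0.35 for Scx, -0.74 to 0.13 for Tnmd, -0.28 to 0.16 for Fmod, -0.28 to 0.38 for Chad and -0.30 to 0.31 for Kera. In healthy quadriceps it gave -0.59 to 0.34 for Tnmd, -0.17 to 1.07 for Mkx, -0.27 to 0.27 for Fmod, -0.48 to 0.19 for Thbs4, -0.58 to 0.70 for Comp, -0.13 to 0.61 for Chad, -0.43 to 0.09 for Kera, -0.44 to 0.41 for Cilp and -0.30 to 0.59 for Cilp2. The difference of the injury effects ranged from -0.95 to 0.08 for Scx, -0.71 to 0.35 for Tnmd, -0.38 to 0.15 for Fmod, -0.61 to 0.13 for Chad and -0.19 to 0.42 for Kera. With 4 libraries a group and this spread, intervals were wide, and depth limits Mkx most, at 6 to 67 counts.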
